A study of Mus musculus with 12 samples.

Results

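The Pim kinase family was taken as the genes named Pim1, Pim2 and Pim3, which were 3 of the 23997 genes listed in each of 12 RNA-seq libraries. The libraries came from bone marrow-derived macrophages (BMDMs) of C57BL/6 mice, in 4 groups of 3, namely untreated wild-type (WT) cells, untreated Pim1-/- cells, and WT and Pim1-/- cells given lipopolysaccharide (LPS) at 100 ng/ml for 4 h. All groups shared the culture, in which marrow cells of male mice aged 8 to 10 weeks were grown for 7 days with human M-CSF at 10 ng/ml, and the Pim1-/- mice carried a CRISPR/Cas9 deletion of exons I-V of Pim1. The labels do not say whether the 3 libraries of a group came from separate mice or cultures, so that the p-values measure only the spread between these libraries, which may be technical. The value per gene was FPKM, fragments scaled to transcript length and to a divisor set for each library. A filter of 1 FPKM in 3 or more libraries kept 10581 genes, all 3 Pim genes among them. Differences were tested in these genes by limma on log2(FPKM + 1). On that scale the change of a low gene comes out smaller than it is in FPKM. A gene was said to differ where p was under 0.05 and the FDR (Benjamini-Hochberg) under 0.1, and was called if it also changed more than 2-fold.

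The Pim kinases are serine/threonine kinases that are active as soon as they are made, so that their activity follows the amount of protein, which cells set through transcription, mRNA turnover and protein turnover. They are known targets of JAK-STAT and NF-kB signalling and act on proteins of the cell cycle, of survival and of translation. In macrophages LPS is sensed by TLR4, which signals through MyD88 to NF-kB and through TRIF to IRF3 and interferon-β.

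The 3 genes share an exon structure. In GENCODE M21 (GRCm38), Pim1 lies at chr17:29490753-29496112, Pim2 at chrX:7878262-7883432 and Pim3 at chr15:88862186-88865726, all on the + strand, and the main transcript of each has 6 exons. Exon 3, which is coding, has 51 bases in all 3 genes and is printed below from the reference to show how near the members are at the mRNA level. Capitals mark the 19 positions that hold the same base in all 3 genes.
Pim1: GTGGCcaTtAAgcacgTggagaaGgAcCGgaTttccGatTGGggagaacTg
Pim2: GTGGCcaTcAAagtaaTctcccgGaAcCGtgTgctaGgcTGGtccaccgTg
Pim3: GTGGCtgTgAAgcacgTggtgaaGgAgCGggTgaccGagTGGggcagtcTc
These exons lie at chr17:29491520-29491570, chrX:7879628-7879678 and chr15:88863041-88863091. Pim1 and Pim3 shared 72.5% of the bases of exon 3, whereas Pim2 shared 45.1% with either. In exon 5, which has 177 bases in each gene, Pim1 and Pim3 shared 72.9%, Pim2 and Pim3 67.8% and Pim1 and Pim2 66.1%. The longest run of identical bases between 2 transcripts was 24, between Pim1 and Pim3, and the other pairs had 17.

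The depth was estimated, since FPKM holds no counts. In genes with a single transcript, 59.8% to 70.1% of the low values were whole multiples, within 0.05, of a fixed step taken to be 1 fragment. From this step about 36000000 to 46000000 fragments per library were assigned to genes. For the Pim genes it came to about 800 to 39000 fragments per library of Pim1, 290 to 570 of Pim3 and 93 to 160 of Pim2. Counting alone then gives an error of 7.9% to 10.0% in each value of Pim2, 4.2% to 5.9% in Pim3 and at most 3.5% in Pim1, and the coefficient of variation between the replicates of Pim2 was 2.41% to 10.4%. The FPKM sums rose from 452511 to 489710 without treatment to 713307 to 849323 after LPS. The divisor of each library, estimated from the same step, was 37800000 to 46000000 without treatment. After LPS it was 20900000 to 23500000 in WT and 25300000 to 32200000 in Pim1-/- libraries.

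Pim1, the founding member of the family, had the highest FPKM of the Pim genes in every library. In Pim1-/- libraries this value is the signal left at the Pim1 gene and not a measure of intact Pim1 mRNA. The rank of Pim1 as an mRNA can therefore be read in WT cells only. In untreated WT cells Pim1 was at 25.0, 21.5 and 22.3 FPKM, and in untreated Pim1-/- cells at 8.70, 8.00 and 9.51 FPKM. After LPS it was at 665.0, 630.2 and 640.9 FPKM in WT cells and at 215.8, 205.0 and 235.8 FPKM in Pim1-/- cells. The 4 groups did not overlap, and every library lay in the order untreated Pim1-/-, untreated WT, Pim1-/- after LPS and WT after LPS. The LPS-treated Pim1-/- cells thus held more signal at the Pim1 gene than WT cells did without LPS.

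The deposited value covers the whole gene. Exons I-V hold 1175 of the 2698 bases of the main Pim1 transcript, and exon VI, outside the deletion, holds 1523 bases or 56.4%. Fragments of exon VI are counted as Pim1 whether or not the other exons are there, so that the remaining signal does not check the deletion itself. Of the 7 annotated Pim1 transcripts 5 start after exon 1 and 0 in or after exon VI. An antisense gene, Gm26885, overlaps the start of Pim1. Its values were not analysed here, and the sources used here do not give the strand setting of the counting, so that fragments of the pair may not be told apart.

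Pim2 had the lowest FPKM of the 3. In untreated WT cells it was at 1.60, 1.68 and 1.82 FPKM, and in untreated Pim1-/- cells at 1.91, 1.89 and 1.98 FPKM. After LPS it was at 2.96, 3.26 and 2.73 FPKM in WT cells and at 1.65, 1.99 and 1.98 FPKM in Pim1-/- cells. The 3 LPS-treated WT libraries stood above all 9 others. From the lowest mean, the groups ran from untreated WT over LPS-treated Pim1-/- and untreated Pim1-/- to LPS-treated WT, and untreated WT cells overlapped with LPS-treated Pim1-/- cells, as did Pim1-/- cells with and without LPS.

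In FPKM, Pim3 lay between the other members in every library. It was at 5.37, 5.22 and 5.81 FPKM in untreated WT cells and at 4.03, 3.65 and 4.01 FPKM in untreated Pim1-/- cells. After LPS it was at 7.44, 6.71 and 7.76 FPKM in WT cells and at 5.46, 5.14 and 5.32 FPKM in Pim1-/- cells. Here the untreated Pim1-/- cells were lowest and the LPS-treated WT cells highest, and the LPS-treated Pim1-/- cells overlapped with the untreated WT cells.

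**Figure D1:**
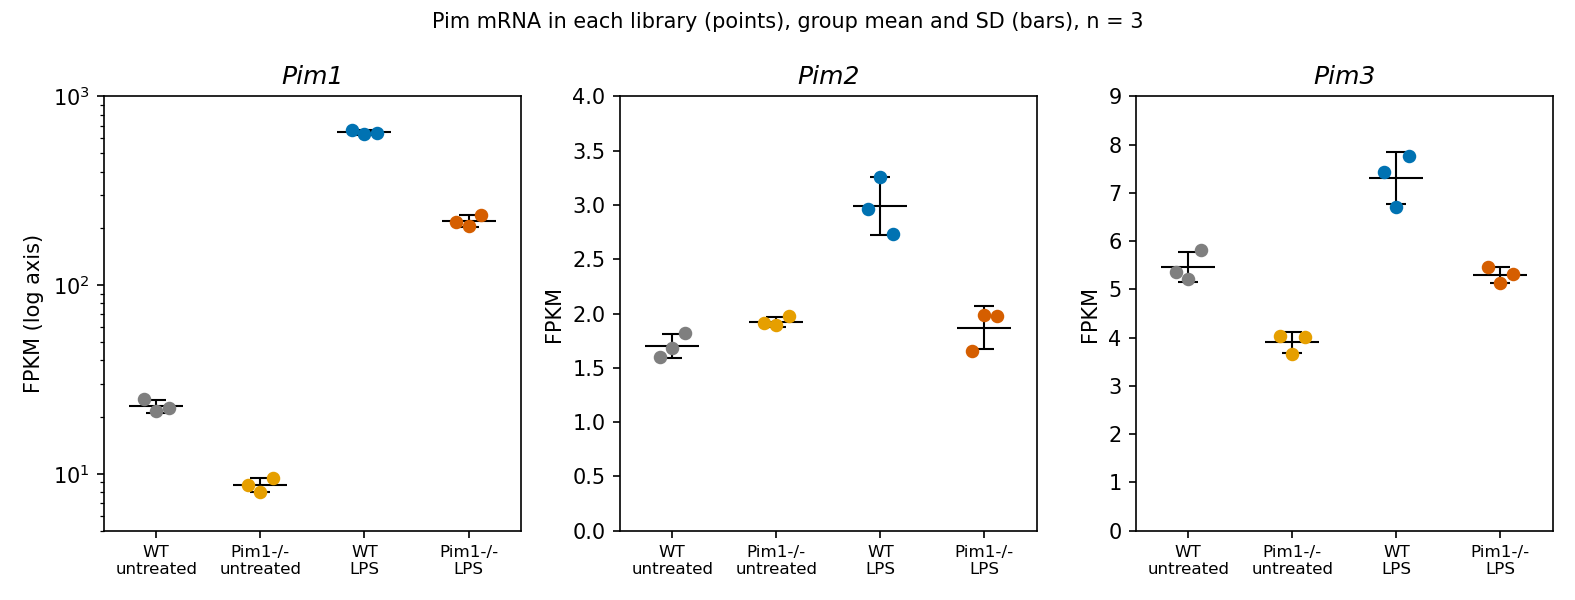
FPKM of Pim1 (log axis), Pim2 and Pim3 (linear axes from 0) in the 12 libraries. Points are libraries and bars the group mean and SD (n = 3). The 4 groups of Pim1 are separate, from 8.73 FPKM in untreated Pim1-/- cells to 645.4 FPKM in LPS-treated WT cells, while Pim2 stays between 1.60 and 3.26 FPKM and Pim3 between 3.65 and 7.76 FPKM.

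To see what the loss of Pim1 left of the family, the genotypes were compared without treatment. Pim1 was lower in Pim1-/- cells, Pim3 was also lower, and Pim2 did not pass the test. Pim1 went from 22.9 ± 1.80 to 8.73 ± 0.752 FPKM (SD, n = 3), or 38.1% of the WT mean, and was called with a log2 fold change of −1.30 (95% confidence interval −1.44 to −1.16, adjusted p = 8.38e-11, limma). Pim1 is the deleted gene, so that a lower value was set by the design and its call is not a finding. Of all genes tested, 7.78% were called in this comparison, 4.4% as higher and 3.37% as lower in Pim1-/- cells. Pim3 went from 5.47 ± 0.309 to 3.9 ± 0.212 FPKM (SD, n = 3), or 71.3% of the WT mean, with a log2 fold change of −0.40 (95% confidence interval −0.53 to −0.27, adjusted p = 1.78e-05, limma), under the 2-fold threshold. Pim2 went from 1.70 ± 0.110 to 1.92 ± 0.0463 FPKM (SD, n = 3), with a log2 fold change of 0.12 (95% confidence interval −0.02 to 0.25, adjusted p = 0.116, limma). For the values as deposited the interval spans 0.985-fold to 1.19-fold of FPKM + 1, a scale on which changes are smaller than in FPKM. The genotypes did not overlap in any of the 3 genes, as in 78.4% of all genes tested, and 76.2% of all genes differed, 33.4% as higher and 42.8% as lower. Scaled to Actb, Pim2 was higher in Pim1-/- cells by 0.43 (adjusted p = 3.20e-05, limma) and Pim3 no longer differed, at −0.12 (adjusted p = 0.116), under a scaling that moved the median of all genes to 0.26. Scaled to the same column sum, Pim2 passed the test at 0.17 (adjusted p = 0.0395).

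After LPS all 3 Pim genes were lower in Pim1-/- than in WT cells. Pim1 went from 645.4 ± 17.8 to 218.9 ± 15.6 FPKM (SD, n = 3), or 33.9% of the WT mean, and was called with a log2 fold change of −1.56 (95% confidence interval −1.70 to −1.42, adjusted p = 9.09e-12, limma). Here too the lower value of the deleted gene was set by the design. The background in this comparison was 8.66% called, 3.51% as higher and 5.15% as lower. Pim2 went from 2.99 ± 0.266 to 1.87 ± 0.195 FPKM (SD, n = 3), or 62.6% of the WT mean, with a log2 fold change of −0.47 (95% confidence interval −0.61 to −0.34, adjusted p = 6.72e-06, limma). Pim3 went from 7.30 ± 0.539 to 5.30 ± 0.162 FPKM (SD, n = 3), or 72.6% of the WT mean, with a log2 fold change of −0.40 (95% confidence interval −0.52 to −0.27, adjusted p = 1.88e-05, limma). Neither Pim2 nor Pim3 reached the 2-fold threshold, and 78.6% of all genes differed between genotypes here, 36.4% as higher and 42.2% as lower. The genotypes did not overlap in any of the 3, as in 77.5% of all genes tested. Scaled to Actb, itself at 7865 to 8339 FPKM in LPS-treated WT libraries and 2786 to 3281 FPKM in the knockout ones, the values turned to 0.41 for Pim2 and 0.74 for Pim3, and Pim1 was at −0.12. That scaling moved the median of all genes to 0.98, and relative to that median the Pim genes stayed lower, at −1.10 for Pim1, −0.57 for Pim2 and −0.25 for Pim3.

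Macrophage markers differed between the genotypes too. Of the 10 listed markers 9 were matched and tested, and 8 of these were lower in Pim1-/- cells both without treatment and after LPS, where 42.8% and 42.2% of all genes were lower. Their summed level was 27600 to 29643 FPKM in untreated WT and 14158 to 15082 FPKM in untreated Pim1-/- libraries, mostly Lyz2, the lysozyme of macrophages, and after LPS it was 28511 to 29048 FPKM and 13987 to 15744 FPKM. Csf1r, the receptor for M-CSF, went from 763.8 to 254.3 FPKM without treatment, whereas Cx3cr1 was higher in Pim1-/- cells, by 0.19 without treatment and 0.49 after LPS (log2). Their part in the Pim results was not tested, and in bulk cultures fewer cells of a type and less RNA per cell cannot be told apart. The summed markers of neutrophils were at most 8.31 FPKM in any library, those of B cells at most 1.57 FPKM, of dendritic cells 2.82 FPKM, of mast cells and basophils 0.255 FPKM and of erythroid cells 0.115 FPKM. Those of T and NK cells reached 18.5 FPKM and those of stromal cells 9.92 FPKM, both in LPS-treated WT cells, against at most 7.25 and 3.14 FPKM in LPS-treated Pim1-/- cells. Of the T and NK cell list, Cd3e and Cd8a were at 0 in all libraries, while Lck reached 15.2 FPKM with LPS in WT cells against 6.1 FPKM in the knockout and Cd4 was at 4.96 FPKM in WT against 0.432 FPKM in Pim1-/- cells without treatment, both called lower.

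**Figure D2:**
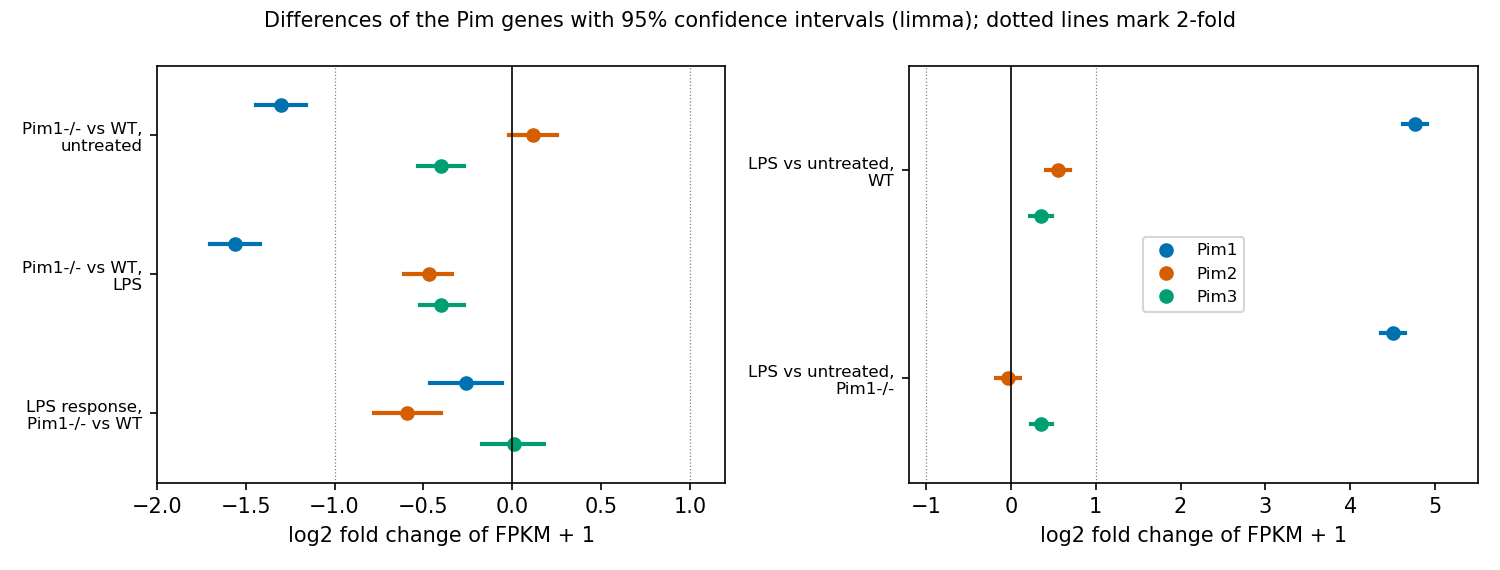
Log2 fold change of FPKM + 1 with its 95% confidence interval for Pim1, Pim2 and Pim3 in the 5 comparisons. The interval of Pim2 includes 0 between the untreated genotypes and for LPS in Pim1-/- cells, and that of Pim3 includes 0 for the difference in LPS response.

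The FPKM of the 3 genes were summed. In Pim1-/- cells the sum and the share of Pim1 include fragments of exon VI, outside the deletion, and are not a measure of intact Pim1 mRNA. It was 30.1 ± 1.76 FPKM in untreated WT and 14.6 ± 0.976 FPKM in untreated Pim1-/- cells, and 655.7 ± 18 and 226.0 ± 15.7 FPKM after LPS (SD, n = 3). Without treatment Pim1 lost 14.2 FPKM between the genotypes, while Pim2 and Pim3 together changed by −1.35 FPKM. After LPS Pim1 lost 426.5 FPKM, and Pim2 and Pim3 together changed by −3.12 FPKM. Together Pim2 and Pim3 held 7.17 ± 0.405 FPKM in WT and 5.82 ± 0.244 FPKM in knockout cells before LPS, and 10.3 ± 0.279 FPKM against 7.17 ± 0.103 FPKM after it (SD, n = 3). The share of Pim1 in the sum was 76.1% in untreated WT cells and 60% in untreated Pim1-/- cells, and the shares of Pim2 were 5.67% and 13.2% and those of Pim3 18.2% and 26.8%. After LPS the share of Pim1 was 98.4% in WT and 96.8% in Pim1-/- cells.

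**Figure D3:**
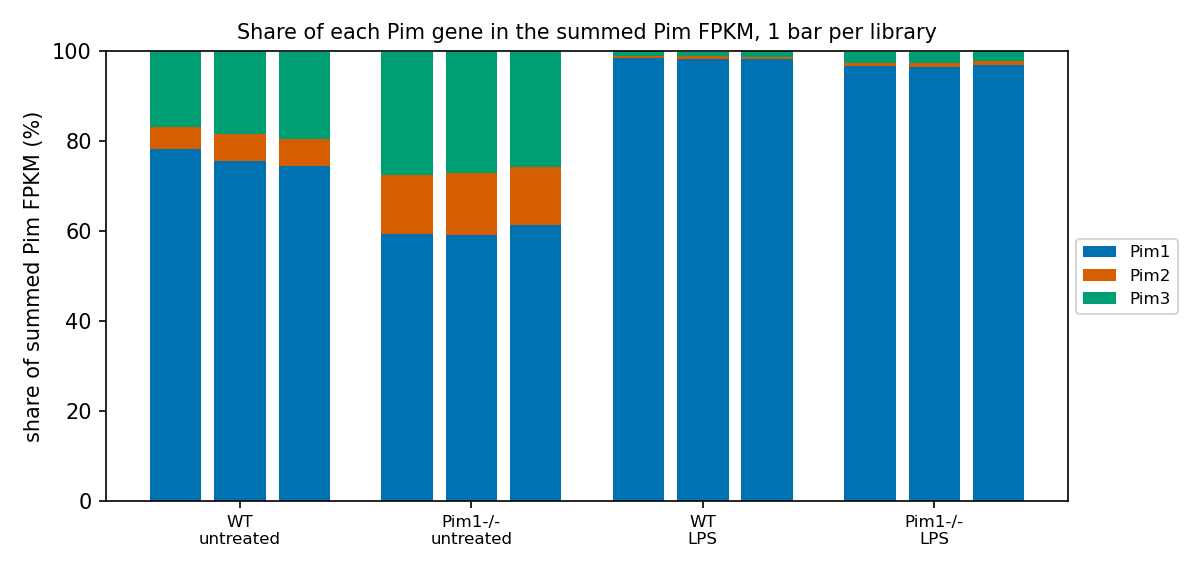
Share of Pim1, Pim2 and Pim3 in their summed FPKM, with 1 bar per library. Pim1 holds 59.1% to 61.4% in the untreated Pim1-/- libraries, 74.5% to 78.2% in the untreated WT libraries and at least 96.6% after LPS.

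LPS raised the signal at the Pim1 gene in both genotypes, far more than that of the other members. These comparisons use the same libraries as those between the genotypes, so that the values are given side by side. In WT cells the mean of Pim1 rose 28.1-fold, with a log2 fold change of 4.76 (95% confidence interval 4.62 to 4.90, adjusted p = 9.58e-19, limma), the 162nd largest of 10581. In Pim1-/- cells it rose 25.1-fold, with a log2 fold change of 4.50 (95% confidence interval 4.36 to 4.64, adjusted p = 2.76e-18, limma), the 143rd largest. LPS called 34.8% of all genes in WT cells, 20.1% as higher and 14.7% as lower, and 25% in Pim1-/- cells, 14.6% as higher and 10.4% as lower. The Pim1 mean moved from the 88.8th to the 99.1th percentile of the listed genes in WT cells and from the 77.6th to the 97.9th in Pim1-/- cells.

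Pim2 rose with LPS in WT cells and did not pass the test in Pim1-/- cells. In WT cells its mean was 1.76 times the untreated one, with a log2 fold change of 0.56 (95% confidence interval 0.42 to 0.70, adjusted p = 5.59e-07, limma). In Pim1-/- cells the log2 fold change was −0.03 (95% confidence interval −0.17 to 0.11, adjusted p = 0.681, limma), and the values overlapped. Pim3 rose in both, by a log2 fold change of 0.36 in WT cells (95% confidence interval 0.23 to 0.49, adjusted p = 3.33e-05, limma), or 1.34 times the untreated mean, and of 0.36 in Pim1-/- cells (95% confidence interval 0.24 to 0.49, adjusted p = 3.25e-05, limma). Untreated and LPS-treated cells did not overlap in Pim1 and Pim3 of either genotype and in Pim2 of WT cells, where 90.4% of all genes did not overlap in WT and 83.8% in Pim1-/- cells. In WT cells 89.7% of all genes differed, 45% as higher and 44.6% as lower, and in Pim1-/- cells 85.2%, 42.2% as higher and 42.9% as lower. The rise of Pim2 and Pim3 rests on the scaling. In untreated WT libraries the estimated fragments were 110 to 150 of Pim2 and 450 to 570 of Pim3. In LPS-treated WT libraries they were 110 to 130 and 330 to 390. With every library scaled to the same column sum, Pim2 was at 0.00 (adjusted p = 0.993) and Pim3 fell by 0.34 (adjusted p = 1.15e-04) in WT cells, Pim2 fell by 0.47 and Pim3 by 0.18 in Pim1-/- cells, and the median of all genes moved to −0.67 and −0.58. Relative to that median Pim2 was at 0.67 and Pim3 at 0.33 in WT cells and at 0.11 and 0.40 in Pim1-/- cells. Scaled to Actb, Pim2 and Pim3 were at −1.11 and −1.78 in WT cells, where the median was at −2.03, and at −1.12 and −0.93 in Pim1-/- cells, where it was at −1.36. With quantile normalization Pim2 passed the test in Pim1-/- cells too, as higher after LPS by 0.21 (adjusted p = 0.00405, limma).

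The difference in LPS response between genotypes was tested as the interaction of genotype and treatment. Pim2 responded less in Pim1-/- cells, with a difference of −0.59 on the log2 scale (95% confidence interval −0.78 to −0.40, adjusted p = 4.52e-05, limma). Pim1 also responded less, by −0.26 (95% confidence interval −0.46 to −0.06, adjusted p = 0.0234, limma). For Pim3 the difference was 0.01 (95% confidence interval −0.17 to 0.18, adjusted p = 0.959, limma). Of all genes, 65.9% differed in their response, 31.3% upward and 34.7% downward in Pim1-/- cells, and 6.67% were called, 2.24% upward and 4.43% downward. None of the 3 Pim genes was called. The smaller response of Pim1 was lost with a pseudocount of 0.1, at −0.18 (adjusted p = 0.127), when scaled to the column sum, at −0.09 (adjusted p = 0.463), and when scaled to the reference genes, at −0.13 (adjusted p = 0.254). It turned to 0.21 with quantile normalization and to 0.88 when scaled to Actb, whereas Pim2 was between −0.82 and −0.47 under the other settings and −0.02 when scaled to Actb.

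**Figure D4:**
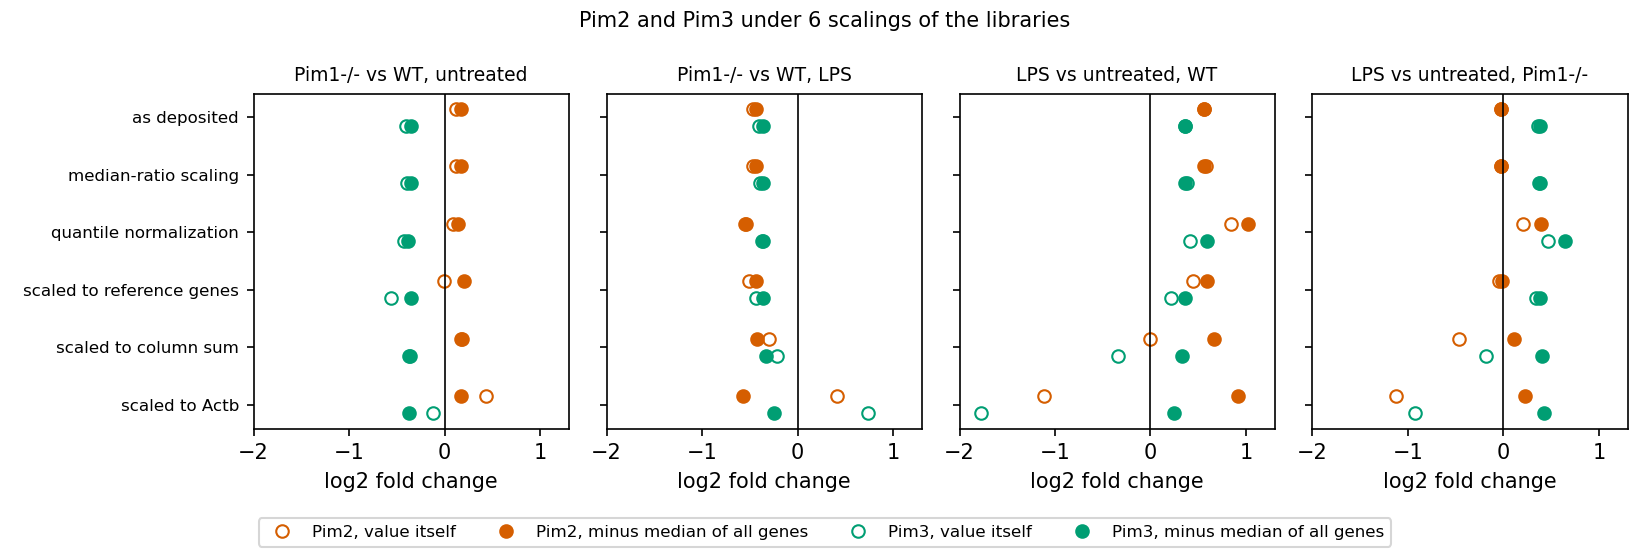
Log2 fold changes of Pim2 and Pim3 in 4 comparisons under 6 scalings of the libraries, as such (open circles) and after the median of all genes was taken off (filled circles). After the median is taken off, Pim3 stays between −0.38 and −0.25 in both genotype comparisons. Pim2 stays between −0.57 and −0.42 in that after LPS and between 0.14 and 0.20 in that without treatment.

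The promoters of the 3 genes are rich in CpG, the dinucleotide of CpG islands. The 300 bases from 250 before to 50 after the annotated start (RefSeq, GRCm38.p6) held 42 CpG in Pim1, 31 in Pim2 and 40 in Pim3, against a median of 7 over all promoters, and their GC content was 81.3%, 62.7% and 69%, against a median of 52.7%. The 120 bases before the start of each gene in GENCODE M21 are printed to show the CpG, in capitals, of which Pim2 holds fewest. In all 3 genes this start lies before the RefSeq start used for the windows. They lie at chr17:29490633-29490752, chrX:7878142-7878261 and chr15:88862066-88862185 on the + strand.
Pim1: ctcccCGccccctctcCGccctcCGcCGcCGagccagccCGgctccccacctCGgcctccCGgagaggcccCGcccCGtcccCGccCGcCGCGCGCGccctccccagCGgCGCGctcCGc
Pim2: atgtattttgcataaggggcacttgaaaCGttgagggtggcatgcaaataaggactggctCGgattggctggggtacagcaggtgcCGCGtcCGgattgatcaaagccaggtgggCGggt
Pim3: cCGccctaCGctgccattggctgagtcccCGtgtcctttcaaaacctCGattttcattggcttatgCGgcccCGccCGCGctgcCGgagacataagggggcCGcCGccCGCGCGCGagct
These stretches hold 20, 6 and 15 CpG. The letters GGGANTTTC for NF-kB, TTCNNNGAA for STAT and GAAANNGAA for the interferon-stimulated response element, searched on both strands, are in 1.11%, 8.3% and 8.56% of 32851 promoter windows and in 0 of the windows of the Pim genes. This says only that these letters are not in these windows.

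The genes whose pattern over the 4 group means was most like that of each member were ranked by the root mean square difference in log2(FPKM + 1), with each gene's own mean taken off. For Pim1 they were Sdc4, a cell surface proteoglycan, at 0.186, Nfkb2, an NF-kB subunit, at 0.225, Trex1, a DNA exonuclease, at 0.244, Zfp36, which destabilises mRNA, at 0.298, and Il18bp, which binds interleukin-18, at 0.313. The means of Pim1-/- cells enter this ranking, where the Pim1 value is the signal left at the deleted gene, lower by design. Likeness to Pim1 is thus likeness to that signal and not to intact Pim1 mRNA. Sdc4 went from 51.5 to 1330.1 FPKM with LPS in WT cells and from 22.3 to 370.0 FPKM in Pim1-/- cells. For Pim2 the genes were Pdia3, E2f3, Wdr82, Ywhab and Cox10, between 0.013 and 0.029. For Pim3 they were Ammecr1l, Gm16907, Rps9, Pex14 and Wipf2, between 0.012 and 0.020. Pim3 was the 860th of the tested genes by likeness to Pim2, at 0.19, whereas Pim2 and Pim3 stood at 2.27 and 2.2 from Pim1.

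The neighbours on the chromosome were read for each member, 3 protein-coding genes on each side. Next to Pim1, Fgd2, which acts on Cdc42, is the nearest coding gene on the side of the Pim1 start, 111092 bp away. It was at 20.3 ± 0.959 FPKM in untreated WT and 5.43 ± 0.395 FPKM in untreated Pim1-/- cells (SD, n = 3), a log2 fold change of −1.73 (adjusted p = 5.58e-13, limma), and at 11.5 ± 0.707 and 4.35 ± 0.109 FPKM after LPS (SD, n = 3), a log2 fold change of −1.22 (adjusted p = 3.98e-11, limma). Unlike Pim1, Fgd2 fell with LPS in WT cells, by 0.77 on the log2 scale. Beyond it, Mtch1 had a log2 fold change between genotypes of 0.20 without treatment and 0.08 after LPS, and on the other side Tbc1d22b had −0.24 and −0.91. Pi16 and Tmem217 were under the filter, with group means of at most 0.501 FPKM, and Gm17657 was not among the listed genes. Otud5, 1636 bp before Pim2, was lower in Pim1-/- cells by −0.71 and −0.75 and rose with LPS by 1.72 in WT and 1.67 in Pim1-/- cells, so that its LPS response was unlike that of Pim2. Slc35a2, 596 bp after Pim2, had −0.27 and 0.20 between genotypes, Gripap1 −0.28 and −0.19, Pqbp1 −0.21 and −0.01 and Timm17b 0.15 and 0.12, and Kcnd1 was under the filter. Next to Pim3, Creld2 had 0.21 and −0.86 between genotypes, Alg12 −0.54 and −0.62 and Zbed4 −0.06 and −0.56, while Ttll8, Mlc1 and Mov10l1 on the other side were listed at 0 in all libraries.

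The mRNA of genes of TLR4 and NF-kB, of JAK-STAT and SOCS and of TRIF to IRF3 was read from lists. Such mRNA levels do not measure the signalling itself. Of 18 genes of TLR4 and NF-kB signalling, 13 were lower and 3 higher in untreated Pim1-/- cells, and 13 were lower and 2 higher after LPS, where the median log2 fold change was −0.34 against −0.03 for all genes. Of all genes, 42.8% were lower and 33.4% higher without treatment, and 42.2% were lower and 36.4% higher after LPS. Nfkb2 was at 383.4 ± 9.85 FPKM in LPS-treated WT and 183.0 ± 12.8 FPKM in LPS-treated Pim1-/- cells (SD, n = 3), a log2 fold change of −1.06, and Myd88, the adaptor of TLR4, had −0.93. Tlr4 itself was higher in Pim1-/- cells, by 0.41 without treatment and 0.81 after LPS. Of 11 tested genes of JAK-STAT signalling and its SOCS feedback inhibitors, 10 were lower in Pim1-/- cells in both comparisons, with a median of −0.50 without treatment and −0.85 after LPS. Stat3, a transcription factor, was at 129.0 ± 0.456 FPKM in LPS-treated WT and 40.7 ± 3.57 FPKM in LPS-treated Pim1-/- cells (SD, n = 3), and Socs1 had a log2 fold change of −1.49. Socs2 was under the filter. LPS raised all 11 genes in both genotypes, where it raised 45% of all genes in WT and 42.2% in Pim1-/- cells, and Socs3 rose most, by 7.80 in WT and 7.22 in Pim1-/- cells. Of 9 genes from TRIF to IRF3, 6 were lower in each comparison, among them Ikbke, an IRF3 kinase, with −1.39 and −0.94. Ifnb1, listed at 0 in all untreated libraries, reached 8.50 ± 0.906 FPKM with LPS in WT cells against 15.5 ± 1.27 FPKM in the knockout (SD, n = 3). By other assays, RT-qPCR and ELISA, the paper reports less IFN-β mRNA and protein in LPS-treated Pim1-/- cells. The cause of this difference was not tested. Scaled to Actb the medians after LPS turned to 0.95, 0.52 and 0.90, and relative to the median of all genes they were −0.04, −0.47 and −0.09.

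Genes of proteins that Pim kinases act on moved in both directions. Of 9 cell cycle substrates, 6 were higher and 3 lower in untreated Pim1-/- cells and 3 were higher and 6 lower after LPS. The shares of all genes were 33.4% higher and 42.8% lower without treatment and 36.4% and 42.2% after LPS. Cdc25c, a phosphatase of mitotic entry, was at 0.251 ± 0.0866 FPKM in untreated WT and 4.97 ± 0.455 FPKM in untreated Pim1-/- cells (SD, n = 3), and Myc had a log2 fold change of 1.15. After LPS Cdkn1a, the inhibitor p21, reached 3024 ± 83.5 FPKM in WT cells against 1236 ± 70.8 FPKM in the knockout (SD, n = 3), a log2 fold change of −1.29, and Cbx3 had 1.08. Of 10 substrates of survival and transcription, 8 were lower and 1 higher without treatment and 5 were lower and 2 higher after LPS, where Runx1 had −1.21 and Cxcr4, a chemokine receptor, 1.29. Of 8 substrates and partners in translation, 4 were lower and 3 higher without treatment, and 2 were lower and 3 higher after LPS. Eif4e, which binds the mRNA cap, went from 13.9 ± 1.17 to 31.1 ± 2.62 FPKM between the untreated genotypes (SD, n = 3), and Eif4b had −0.50 without treatment and 0.58 after LPS. The medians of these 3 lists after LPS, −0.23, −0.10 and −0.11, turned above 0 when scaled to Actb, to 0.99, 0.66 and 1.19, where the median of all genes was at 0.98. Relative to all genes they were then 0.01, −0.33 and 0.21, against −0.20, −0.07 and −0.08 for the values as deposited.

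Kinases that share a substrate motif with the Pim family were measured beside it. Of 9 genes of the AKT, SGK, RSK and S6K kinases, 5 were lower and 2 higher in untreated Pim1-/- cells and 8 were lower and 1 higher after LPS, where 42.8% and 33.4% of all genes were lower and higher without treatment and 42.2% and 36.4% after LPS. None of the 9 was called, against 7.78% and 8.66% of all genes. Akt2 was at 84.2 ± 1.42 FPKM in LPS-treated WT and 42.9 ± 1.70 FPKM in LPS-treated Pim1-/- cells (SD, n = 3), a log2 fold change of −0.96, and Sgk1 was higher in Pim1-/- cells by 0.64. Without treatment Sgk3 was higher by 0.40. Of 7 genes for chaperones and phosphatase subunits that set the stability of the Pim1 protein, 2 were higher without treatment, of which Hsp90aa1, a chaperone, went from 45.3 ± 3.34 to 125.4 ± 11.4 FPKM (SD, n = 3), a log2 fold change of 1.45. After LPS 6 were lower and Hsp90aa1 was higher by 0.32. The medians after LPS, −0.35 for the kinases and −0.37 for the stability genes, turned to 1.01 and 1.06 when scaled to Actb, or 0.03 and 0.08 relative to all genes, against −0.32 and −0.34 for the values as deposited.

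**Figure D5:**
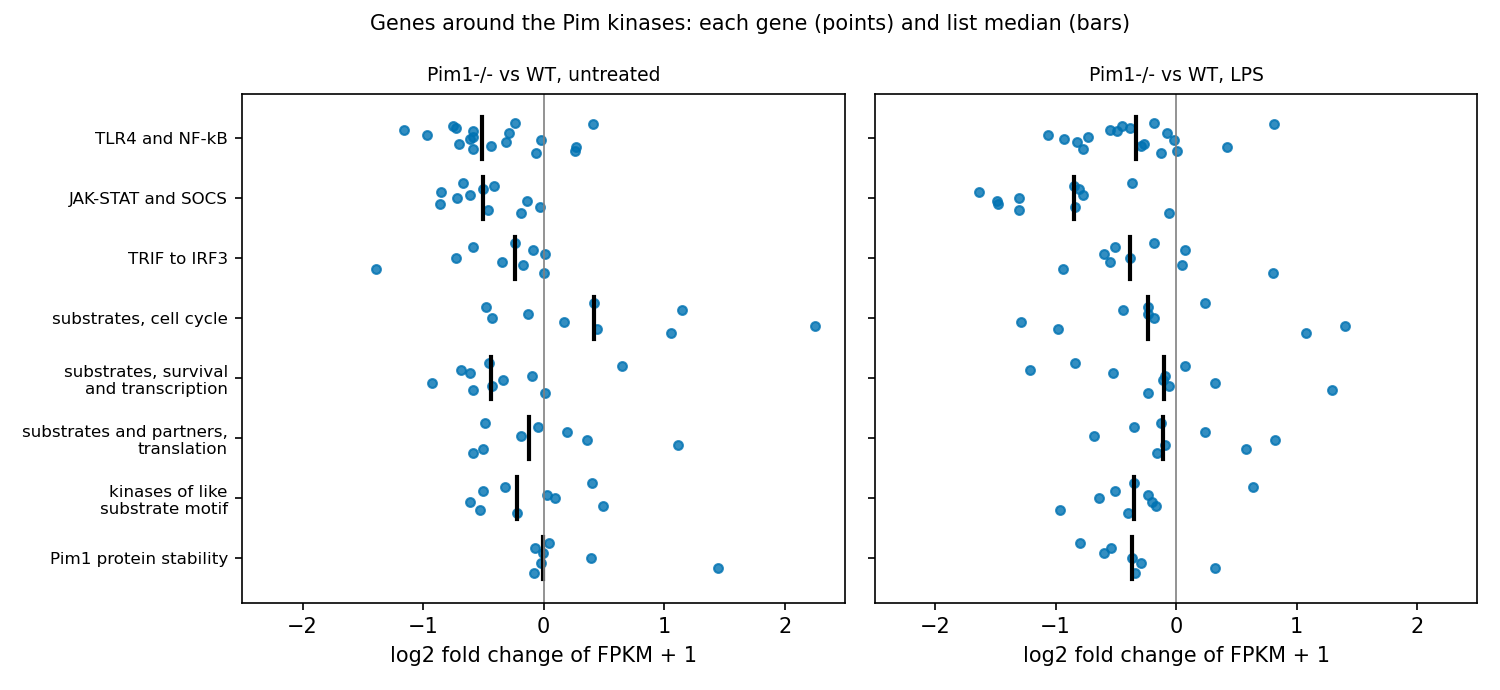
Log2 fold change of FPKM + 1 between Pim1-/- and WT cells, untreated and after LPS, for the tested genes of 8 lists around the Pim kinases. Points are genes and black bars list medians, which run from −0.52 to 0.42 without treatment and from −0.85 to −0.10 after LPS.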

How the data were processed

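RNA was measured in 12 libraries. The authors prepared stranded mRNA libraries, mapped reads with TopHat2 (2.0.13) and ran Cuffdiff (2.2.1), and the submitters' processing notes also name cutadapt (1.18) and the build mm10, whereas the methods name rat rn5. The deposited columns carry no unit and were read as FPKM, from their decimals, sums and the use of Cuffdiff. For the annotation and the library normalization, nothing was given in the sources used here.

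The values were used as deposited. log2(FPKM + 1) was fitted in R 4.3.3 by limma 3.58.1, with a mean-variance trend and 1 mean per group, with Benjamini-Hochberg adjustment over 10581 genes and two-sided tests. The fold thresholds follow the study's ontology analysis. The fragment step used values under 0.15 FPKM, an assumed fragment length of 200 and 2966 genes with 1 transcript. Total fragments used the longest transcript of each of 22694 matched genes.

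The members and lists were chosen with earlier results of these data known. Names were drawn from the members, the 5 genes most like each, 3 coding neighbours on each side, and up to 2 genes per direction and list among those that differed, plus any under the filter. From the lists only examples are given. The marker genes named in the text were picked once their values were known. Alternatives changed the pseudocount, filters, 5 scalings (1 of them to 10 reference genes), the fit and leaving out each library. Replicates had Pearson's r of 0.9977 to 0.9989 across genes, which are not independent. Tables and figures were made with matplotlib 3.10.9, numpy 2.4.6, pandas 2.3.3 and Python 3.11.15. Protein sequences were not used here.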

Additional observations from a re-analysis of the deposited data

Results flagged for a closer look

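The response to LPS differed between the genotypes for Pim2, by −0.59 on the log2 scale (standard error 0.09, adjusted p = 4.52e-05, limma), with all 3 LPS-treated WT libraries above the untreated ones and overlapping values in Pim1-/- cells. It also differed for Pim1, by −0.26 (standard error 0.09, adjusted p = 0.0234, limma). The log2 changes of the Pim1 means were 4.76 in WT and 4.50 in Pim1-/- cells. For Pim1 the result lost the threshold with a pseudocount of 0.1 (−0.18, adjusted p = 0.127) and when scaled to the column sum (−0.09) or to the reference genes (−0.13), and turned to 0.21 with quantile normalization and 0.88 when scaled to Actb. That of Pim2 was −0.02 when scaled to Actb.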

How the results depend on the processing

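The replicate numbers in the labels recur in all groups. In the 5416 genes whose mean reached 10 FPKM, deviations of same-numbered libraries correlated at −0.19 to 0.37, and no pair of groups had all 3 over 0.1. A library correlated best with its own number in 19 of 36 cases, above the average count of random matching. Each pair of groups enters in both directions, so that the cases are not independent, and the count was not tested. These values do not settle whether the numbers pair the libraries, and no pairing was modelled in the main fit. With the replicate number as a block all 15 results of the Pim genes kept their direction and their side of the threshold, for example Pim2 between the untreated genotypes at 0.12 (adjusted p = 0.102, limma), and the called genes between genotypes were 824 and 915. The cause of the changes below was not tested.

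Among the genotype comparisons without treatment, Pim2 was 0.17 scaled to the column sum, −0.01 scaled to the reference genes, 0.43 scaled to Actb and 0.12 (adjusted p = 0.0507) in a fit of only the groups compared, and Pim3 −0.12 scaled to Actb. After LPS, scaling to Actb gave −0.12 for Pim1, 0.41 for Pim2 and 0.74 for Pim3. For LPS in WT cells, Pim2 and Pim3 were 0.00 and −0.34 scaled to the column sum and −1.11 and −1.78 scaled to Actb. In Pim1-/- cells, Pim2 was −0.47, −1.12 and, with quantile normalization, 0.21, and Pim3 −0.18 and −0.93. The response difference of Pim1 was lost at −0.18 with a pseudocount of 0.1, −0.09 scaled to the column sum and −0.13 scaled to the reference genes, and was 0.88 scaled to Actb and 0.21 with quantile normalization. That of Pim2 was −0.02 and that of Pim3 0.85 scaled to Actb, and that of Pim3 0.00 with median-ratio scaling.

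Leaving out 1 library moved no Pim result across its threshold. The results near 0 changed sign, with Pim2 under LPS in Pim1-/- cells at −0.06 to 0.03, reaching 0.03 without LPS-treated Pim1-/- replicate 1, and the response difference of Pim3 at −0.05 to 0.05, at −0.03 without untreated WT replicate 3 or untreated Pim1-/- replicate 2, −0.05 without LPS-treated WT replicate 2 and −0.01 without LPS-treated Pim1-/- replicate 1. The filter of 5 FPKM removed Pim2.

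The summed Pim FPKM of untreated WT cells was 38.12 scaled to the column sum, 33.33 scaled to the reference genes and 54.33 scaled to Actb. Scaled to the column sum and to Actb it was 19.19 and 33.71 in untreated Pim1-/- cells, 472.6 and 194.3 in LPS-treated WT cells and 188.2 and 182.0 in LPS-treated Pim1-/- cells. With no fold threshold and the FDR limit at 0.05, called genes were 7904 and 8194 between the untreated and the LPS-treated genotypes, 9453 and 8954 for LPS in WT and Pim1-/- cells and 6657 for the response, and scaled to Actb 5185 between the LPS-treated genotypes, 9108 and 7884 for LPS and 3103 for the response. With a pseudocount of 0.1 they were 1442 between the LPS-treated genotypes and 1075 for the response. Scaled to the column sum, 1190 genes were called higher and 3680 lower by LPS in WT cells, where the values as deposited gave 2130 and 1556. At 93 to 160 fragments per library, changes of Pim2 within its counting error were not detectable.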
